A study of Mus musculus with 9 samples.

Results

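The 9 genes described here encode structural and lipid-making components of central myelin, the membrane sheath that oligodendrocytes wrap around axons. They are Mbp, Mag, Mog, Mobp, Cnp, Mal, Cldn11, Ugt8a and Aspa, chosen by name from the 23412 gene symbols of the table, and all 9 were among the 14336 genes tested. Their RNA was read in hippocampal tissue of wild-type mouse pups at postnatal day 21, by bulk sequencing of 3 groups of 3 samples. Pups of the PFOS P8-14 group had nursed on days 8 to 14, and pups of the PFOS P1-7 group on days 1 to 7, from dams given 1 mg/kg per day of perfluorooctane sulfonate (PFOS, a persistent surfactant) by gavage, and control samples are labelled sham. The design asks which postnatal window of exposure alters the hippocampus. The labels used here give no strain, sex, litter or pooling, so a p-value here is set against the variation among these samples alone, and some of that may be technical.

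Oligodendrocytes arise from precursor cells, stop dividing and then switch on a common set of myelin genes, a programme driven by transcription factors such as Olig2, Sox10 and Myrf. In mouse brain most of this switch happens in the first postnatal weeks, so a hippocampus at weaning is still adding myelin. The basic proteins Mbp and Mobp lie on the cytoplasmic face of the membrane and hold its layers together. Mag and Mog are immunoglobulin-family proteins of the innermost and outermost surfaces of the sheath, and Mog is a late marker of the maturing cell. Cnp keeps cytoplasmic channels open within myelin, Cldn11 forms its tight junctions and Mal is a proteolipid that helps sort membrane to it. Ugt8a makes galactosylceramide, the typical lipid of myelin, and Aspa releases acetate from N-acetylaspartate for lipid synthesis.

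Promoter windows of 300 bases (250 before and 50 after the annotated start) came from RefSeq on build GRCm38.p6. Windows of 8 of the 9 genes were read, and none was read for Mbp. They were searched on both strands for CTGGCAC and CTGGTAC, forms of the core bound by Myrf, for ACAAAG, a core of Sox family factors, and for CANNTG, the E-box bound by Olig2 and related factors. No match of one motif overlapped a match of another in these 8 windows. The 4 windows below are shown because they hold a Myrf or Sox core, which is in capitals on either strand.
Cnp: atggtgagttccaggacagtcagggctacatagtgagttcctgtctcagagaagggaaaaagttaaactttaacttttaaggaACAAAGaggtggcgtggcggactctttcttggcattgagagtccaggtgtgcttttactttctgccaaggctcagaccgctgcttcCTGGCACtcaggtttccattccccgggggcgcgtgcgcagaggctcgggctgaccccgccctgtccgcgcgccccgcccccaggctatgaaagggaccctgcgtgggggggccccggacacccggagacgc
Mag: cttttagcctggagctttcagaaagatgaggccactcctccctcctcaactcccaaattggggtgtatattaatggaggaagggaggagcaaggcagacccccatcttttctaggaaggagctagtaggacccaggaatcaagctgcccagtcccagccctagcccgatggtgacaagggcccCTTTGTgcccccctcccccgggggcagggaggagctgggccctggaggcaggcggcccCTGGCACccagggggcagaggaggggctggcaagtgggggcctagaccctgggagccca
Mobp: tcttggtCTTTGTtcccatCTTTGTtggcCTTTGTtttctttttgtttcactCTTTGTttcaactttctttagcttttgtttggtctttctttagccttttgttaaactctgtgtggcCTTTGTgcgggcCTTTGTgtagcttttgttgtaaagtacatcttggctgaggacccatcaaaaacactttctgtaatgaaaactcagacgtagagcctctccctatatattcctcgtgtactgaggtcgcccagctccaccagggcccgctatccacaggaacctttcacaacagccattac
Mog: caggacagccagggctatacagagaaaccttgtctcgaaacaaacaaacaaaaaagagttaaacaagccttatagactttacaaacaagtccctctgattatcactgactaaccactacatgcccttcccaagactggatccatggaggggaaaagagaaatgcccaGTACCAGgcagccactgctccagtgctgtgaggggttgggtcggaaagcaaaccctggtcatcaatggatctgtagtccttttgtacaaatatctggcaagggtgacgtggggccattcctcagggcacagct
The Cnp window is chr11:100574689-100574988 on the plus strand and the Mag window is chr7:30914873-30915172 on the minus strand. The Mobp window is chr9:120149492-120149791 on the plus strand and the Mog window is chr17:37023349-37023648 on the minus strand. A Myrf core in either form was present in 3 of the 8 windows (Cnp, Mag and Mog), and in 7.1% of 27025 mouse promoters of the same length. A Sox core was present in 3 of 8 (Cnp, Mag and Mobp), against 18.7% of promoters. Mobp held 6 Sox cores, all on the strand opposite to the gene. Their first bases lay between 243 and 120 bases before the start of the gene. Of the 27025 promoters 1, that of Mobp itself, held so many, but this limit was set at its own count. At least 2 Sox cores were present in 1 of the 8 windows (Mobp), against 2.27% of promoters. An E-box was present in 4 of 8 (Aspa, Cnp, Mag and Ugt8a), against 72.1%. These are matches of letters, and no binding was measured.

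The values are TPM (transcripts per 1000000, a level scaled by transcript length), so levels can be compared between genes, and the sequencing depth is unknown. Mbp had the highest mean of any gene in the table, 8354 TPM over the 9 libraries. Cnp followed at 928 TPM, then Mag at 571, Cldn11 at 567, Mobp at 544, Mal at 467, Mog at 247, Ugt8a at 140.3 and Aspa at 22.7 TPM. Most neighbours in this order kept it in every library. The exceptions were Mag above Cldn11 in 5 of 9 libraries, Cldn11 above Mobp in 6 and Mobp above Mal in 8. Mag, Cldn11 and Mobp thus had no fixed order. Their SDs between libraries (94.6, 92.3 and 83.1 TPM) include variation that these genes shared, and are not the spread of a difference within a library. Together the 9 genes made up 1.22% ± 0.0683 of all TPM in PFOS P8-14, 1.29% ± 0.226 in PFOS P1-7 and 1.04% ± 0.224 in control (SD, n = 3 each). Mbp alone gave 71.1 to 72.7% of that sum in PFOS P8-14, 71.0 to 71.3% in PFOS P1-7 and 66.7 to 70.4% in control.

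Control replicate 1 and PFOS P1-7 replicate 3 stood at the ends of the range. Every one of the 9 genes was lowest in control replicate 1, and 8 of the 9 were highest in PFOS P1-7 replicate 3, Cnp being highest in control replicate 3. The ratio of the highest to the lowest library lay between 1.57 (Cnp) and 3.19 (Aspa). Among the 8 libraries other than control replicate 1 it was narrower, between 1.40 (Mobp and Cnp) and 1.57 (Aspa). Fewer oligodendrocytes and less myelin RNA per oligodendrocyte cannot be told apart in bulk tissue.

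**Figure D1:**
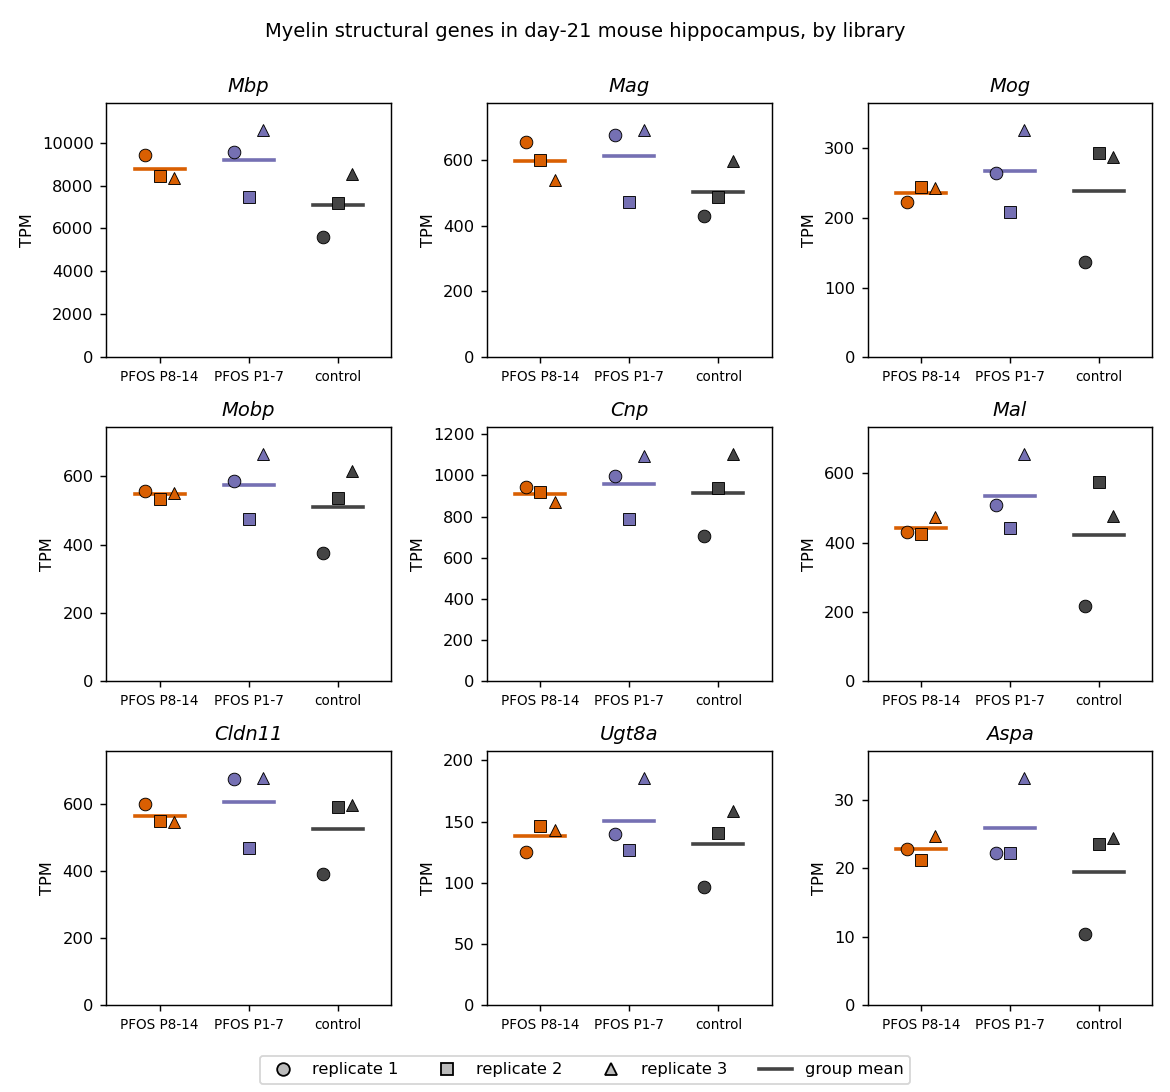
Level of each of the 9 myelin genes (TPM, axes from 0) in PFOS P8-14, PFOS P1-7 and control libraries, with a symbol shape for each replicate and the group mean as a line. Control replicate 1 is the lowest point in all 9 panels, and the groups overlap in each.

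Of the proteins of the cytoplasmic side, Mbp (chromosome 18, 82475091 to 82585637 on GRCm38) stood at 9449, 8449.7 and 8360.2 TPM in PFOS P8-14, at 9554, 7472 and 10585 TPM in PFOS P1-7, and at 5606, 7168 and 8542 TPM in control. Control replicate 3 was above PFOS P8-14 replicates 2 and 3 and above PFOS P1-7 replicate 2, so the groups overlapped. Mobp (chromosome 9, 120149742 to 120181488) stood at 556, 534 and 552 TPM in PFOS P8-14, at 585, 476 and 665 TPM in PFOS P1-7, and at 375, 535 and 617 TPM in control. Its PFOS P8-14 libraries differed by little, whereas control spanned them on both sides. Cnp (chromosome 11, 100574909 to 100591875) stood at 941, 917 and 871 TPM in PFOS P8-14, at 997, 790.0 and 1094 TPM in PFOS P1-7, and at 703, 939 and 1103 TPM in control, with the lowest and the highest library both in control.

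Among the surface and junction proteins, Mag (chromosome 7, 30899175 to 30914922) stood at 653, 601 and 538 TPM in PFOS P8-14, at 675, 472 and 690.1 TPM in PFOS P1-7, and at 429, 486 and 595 TPM in control. PFOS P1-7 replicate 2 lay below control replicates 2 and 3, so the groups overlapped. Mog (chromosome 17, 37010740 to 37023398) stood at 222, 244 and 243 TPM in PFOS P8-14, at 265, 209 and 326 TPM in PFOS P1-7, and at 137, 294 and 287 TPM in control. Control replicates 2 and 3 were above each PFOS P8-14 library, and control replicate 1 was below all of them. Cldn11 (chromosome 3, 31149920 to 31164326) stood at 599.97, 552 and 547 TPM in PFOS P8-14, at 677, 470.1 and 679 TPM in PFOS P1-7, and at 391, 593 and 597 TPM in control, and the groups overlapped.

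Mal (chromosome 2, 127633226 to 127656695) stood at 430.05, 426 and 474 TPM in PFOS P8-14, at 508, 443 and 656 TPM in PFOS P1-7, and at 218, 574 and 477 TPM in control. Control replicates 2 and 3 were above all PFOS P8-14 libraries, as for Mog. Of the lipid enzymes, Ugt8a (chromosome 3, 125865272 to 125938682) stood at 125, 146 and 143 TPM in PFOS P8-14, at 139.8, 127 and 186 TPM in PFOS P1-7, and at 96.2, 141 and 159 TPM in control, and the groups overlapped. Aspa (chromosome 11, 73304987 to 73326876) stood at 22.8, 21.1 and 24.7 TPM in PFOS P8-14, at 22.2, 22.2 and 33.2 TPM in PFOS P1-7, and at 10.4, 23.5 and 24.4 TPM in control. Apart from control replicate 1 and PFOS P1-7 replicate 3, its 7 remaining libraries lay between 21.1 and 24.7 TPM.

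Exposure on days 1 to 7 was compared with control first. All 9 myelin genes had a mean log2(TPM + 1) above that of control, and none passed the threshold in limma with Benjamini-Hochberg adjustment over all genes (adjusted p from 0.286 for Mbp to 0.802 for Cnp). The largest difference was that of Aspa, 0.46 (SE 0.28), with 25.9 ± 6.33 TPM in PFOS P1-7 and 19.4 ± 7.83 TPM in control (SD, n = 3 each). Mbp differed by 0.38 (SE 0.18), with 9204 ± 1586 TPM in PFOS P1-7 and 7105 ± 1469 TPM in control, and had the smallest unadjusted p of the 9 genes, 0.0574 in limma. Mal differed by 0.43 (SE 0.30), Mag by 0.27 (SE 0.16) and Cnp by 0.08 (SE 0.16).

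The median over the 9 genes was 0.22, beside 0.09 over all tested genes, of which 65.5% had a difference above 0. The groups overlapped for all 9, whereas 12.3% of tested genes were higher and 6.56% lower in PFOS P1-7 without overlap. Of all tested genes 0 passed the threshold in limma (0% called), and 12.5% were higher and 5.79% lower at an unadjusted p below 0.05 (18.3% in all), against 0 of the 9 myelin genes. The 95% intervals of the myelin genes reached between 0.37 and 0.67 to either side, so differences within those bounds could not be seen with 3 samples a group. Without control replicate 1 the median was 0.01, 5 of the 9 differences were above 0, and limma called 2658 genes but none of the 9.

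Exposure on days 8 to 14 gave smaller differences from control. All 9 differences in mean log2(TPM + 1) were above 0, with a median of 0.13 beside 0.06 over all tested genes, of which 62.1% were above 0. None of the 9 passed the threshold in limma (adjusted p from 0.487 for Mbp to 0.976 for Cnp), 0% of all tested genes did, and 0 of the 9 had an unadjusted p below 0.05, against 6.33% of tested genes higher and 4.65% lower. Mbp differed by 0.32 (SE 0.18), with 8753 ± 604 TPM in PFOS P8-14 against 7105 ± 1469 TPM in control. Aspa differed by 0.31 (SE 0.28) and Mag by 0.26 (SE 0.16).

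Mog and Cnp had slightly lower mean TPM in PFOS P8-14 than in control, 236 ± 12.4 against 239 ± 88.7 TPM for Mog and 909.8 against 915 TPM for Cnp, although their log2 differences were 0.06 (SE 0.27) and 0.01 (SE 0.16). No myelin gene was without overlap in either direction, against 7.31% of tested genes higher and 5.99% lower without overlap. For most of the 9 genes the direction changed when control replicate 1 was left out. Without it the median was -0.07, 7 of the 9 differences were below 0 (Mbp and Mag stayed above), and Mog had the largest difference of the 9, -0.30 (adjusted p = 0.229 in limma). That fit called 1741 genes, none of them among the 9.

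**Figure D2:**
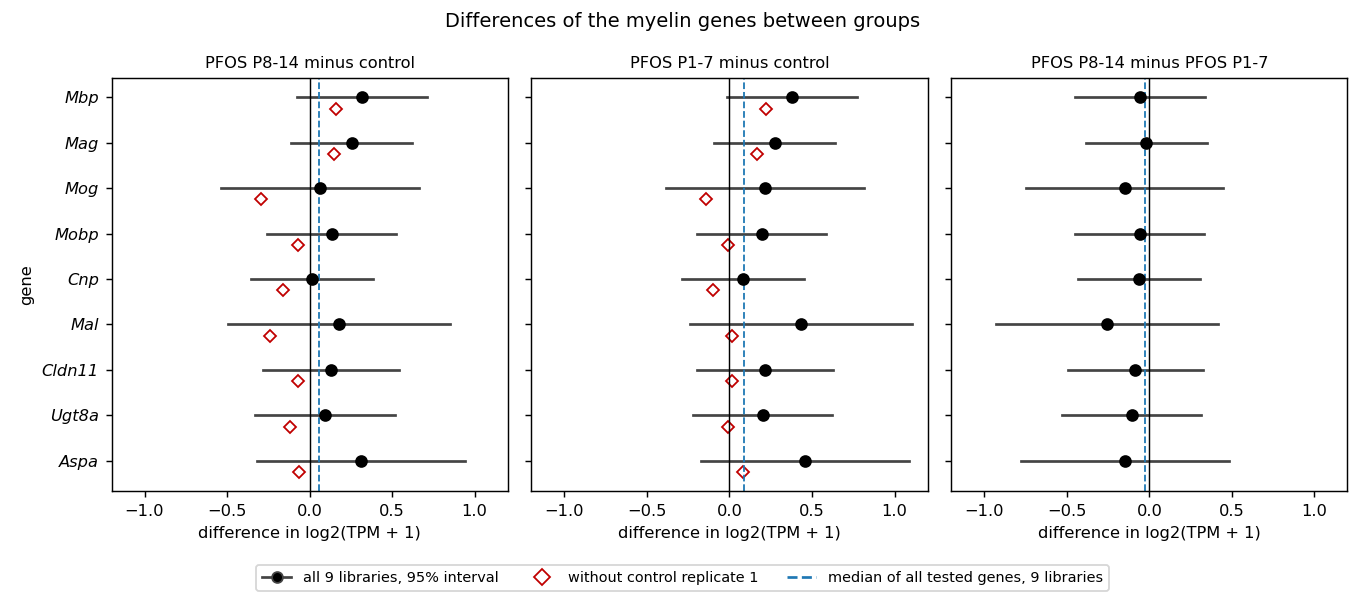
Difference in log2(TPM + 1) of each myelin gene for PFOS P8-14 minus control, PFOS P1-7 minus control and PFOS P8-14 minus PFOS P1-7 (points, with 95% intervals from limma as lines). Open diamonds, in both comparisons with control, give the difference without control replicate 1 and the dashed line the median of all tested genes. Every interval includes 0, and 7 of the 9 diamonds lie below 0 in the first panel.

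Between the exposed groups, all 9 genes had a lower mean in PFOS P8-14 than in PFOS P1-7, and the 9 log2 differences had a median of -0.08 beside -0.03 over all tested genes (38.8% above 0). Mal had the largest difference, -0.26 (SE 0.30), with 443 ± 26.3 TPM in PFOS P8-14 and 536 ± 109 TPM in PFOS P1-7 (SD, n = 3 each). None of the 9 passed in limma (adjusted p = 0.9998 for each), 0% of all genes did, and the groups overlapped for all 9, against 4.15% of genes lower and 1.90% higher without overlap. An unadjusted p below 0.05 was found for 0 of the 9 and for 1.10% of all genes (0.467% higher and 0.635% lower). Without PFOS P1-7 replicate 3, 8 of the 9 differences were above 0, and the median was 0.04.

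The 9 genes varied together across libraries. Over the 9 libraries the 36 pairs had Pearson's r of log2(TPM + 1) between 0.61 (Mag with Mal) and 0.96 (Mog with Mal), with a median of 0.88. Spearman's rho lay between 0.35 (Mag with Aspa) and 0.97 (Mbp with Mag), with a median of 0.69. With the group means removed the median r was 0.90, so the covariation did not come from differences between group means alone. Control replicate 1 (mean deviation -0.64) was part of that value, which was not computed without it. The PFOS P8-14 libraries differed little in their mean (deviations from 0.007 to 0.035), so covariation within each group was not shown. These correlations are descriptions over libraries that share groups and the same RNA, and no p is given. Mobp was the most typical gene, with r = 0.99 to the mean of the other 8, and the lowest was Mag, with r = 0.81. Without control replicate 1 Mobp stayed highest, at 0.97, and Mal was lowest, at 0.65, below Mag at 0.70.

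Part of this covariation rested on the library at each end. Without control replicate 1 the median r was 0.73, and without PFOS P1-7 replicate 3 as well it was 0.43, with 6 of the 36 pairs below 0. These libraries lay at the ends of the range of the same genes, and a narrower range by itself tends to lower r. The pairs named next were picked from the 36. The pair of Mbp and Mag held in each set (0.95, 0.95 and 0.96), as did Mobp with Cnp (0.96, 0.94 and 0.94). Mog with Mal stood at 0.96, 0.87 and 0.77. Mbp with Mal did not hold, at 0.77, 0.30 and -0.37. Mag with Mal stood at 0.61, 0.20 and -0.28, and Mal with Aspa at 0.96, 0.80 and 0.40.

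**Figure D3:**
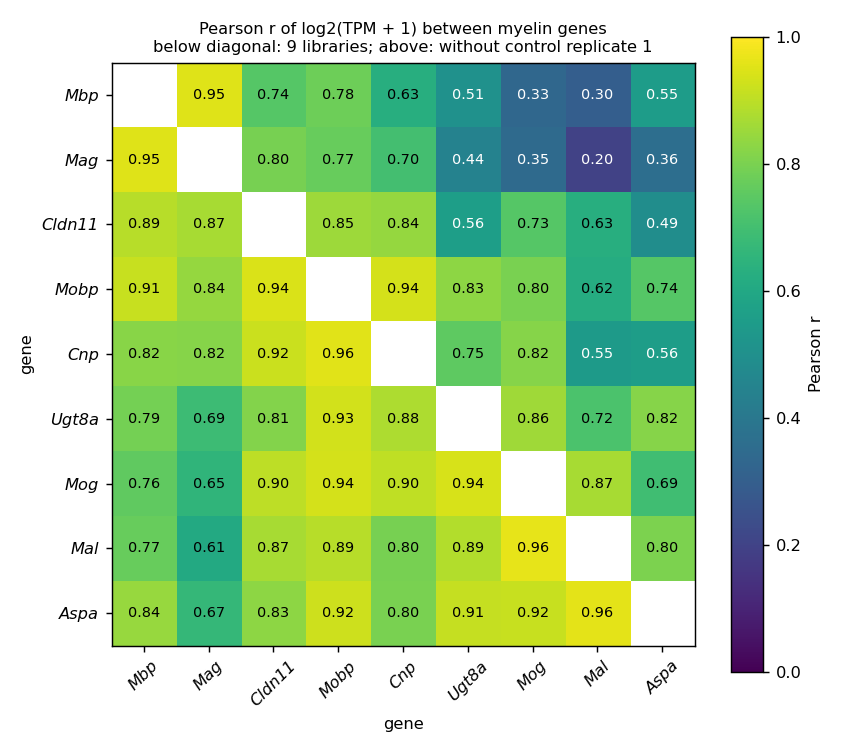
Pearson's r of log2(TPM + 1) between each pair of the 9 myelin genes, over 9 libraries below the diagonal and without control replicate 1 above it (colour from 0 to 1). Mbp and Mag keep r = 0.95 on both sides, whereas Mag with Mal is 0.61 below the diagonal and 0.20 above it.

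Relative to the other myelin genes of the same library, control replicates 1 and 2 differed in composition. In control replicate 1, Mal and Aspa were 0.45 and 0.42 lower on the log2 scale, relative to the other 8 genes, than on average over libraries, whereas Cnp and Mag were 0.28 higher each. As plain ratios, control replicate 1 held 0.42 of the mean of the other controls for Mal, 0.43 for Aspa and 0.47 for Mog, but 0.71 for Mbp and 0.79 for Mag. In control replicate 2 the composition ran the other way, with Mal 0.34 and Mog 0.26 higher and Mag 0.30 and Mbp 0.28 lower than on average. Control replicate 3 (0.12 at most, for Cnp) and the exposed libraries stayed closer to the average. The largest deviations of the exposed libraries were 0.21 for Aspa in PFOS P1-7 replicate 3 and -0.20 for Ugt8a in PFOS P8-14 replicate 1.

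For Mbp and Mal the groups overlapped in these relative levels. Mbp averaged 0.07 ± 0.10 in PFOS P8-14, 0.02 ± 0.05 in PFOS P1-7 and -0.10 ± 0.19 in control (SD, n = 3 each). Mal averaged -0.05 ± 0.10 in PFOS P8-14, 0.12 ± 0.08 in PFOS P1-7 and -0.06 ± 0.39 in control. Mag, Mog, Cldn11, Ugt8a and Aspa overlapped between groups as well. Only for Cnp and Mobp did some groups not overlap. The gaps were narrow, and these differences were not tested. No share over all genes was computed for such relative levels, so these gaps have no background to be set against. Cnp averaged -0.04 ± 0.06 in PFOS P8-14, -0.09 ± 0.06 in PFOS P1-7 and 0.13 ± 0.15 in control, its lowest control (-0.02) lying below the highest PFOS P8-14 library (-0.0021) and above each PFOS P1-7 library (-0.04 at most). Mobp lay between -0.02 and 0.02 in PFOS P8-14, between -0.09 and -0.02 in PFOS P1-7 and between -0.06 and 0.13 in control. Each PFOS P8-14 library (-0.0174 at least) was above each PFOS P1-7 library (-0.0235 at most).

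**Figure D4:**
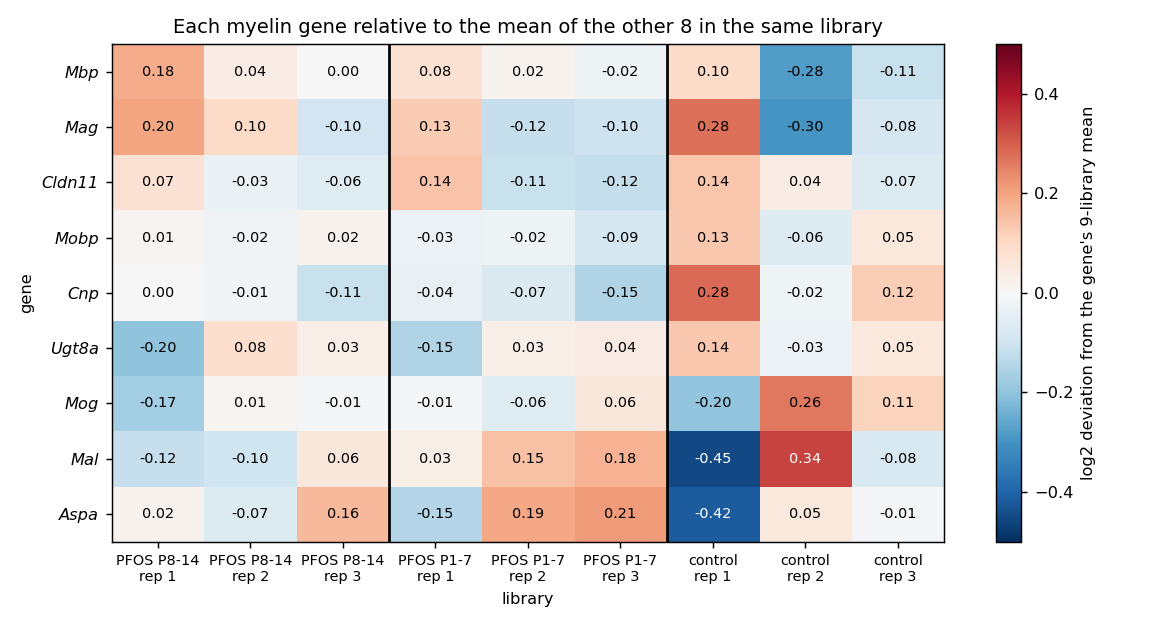
Log2 level of each myelin gene relative to the mean of the other 8 in the same library, as a deviation from that gene's mean over 9 libraries, with PFOS P8-14, PFOS P1-7 and control libraries from left to right. Control replicate 1 is low in Mal (-0.45) and Aspa (-0.42), and control replicate 2 is low in Mag (-0.30) and Mbp (-0.28).

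The rest of the oligodendrocyte programme was read from lists. Of 36 other genes of mature oligodendrocytes, 35 were tested, and their mean log2 level followed that of the 9 myelin genes with r = 0.99 and rho = 1 over 9 libraries, and r = 0.97 without control replicate 1. None of the 35 passed the threshold in limma in any comparison. At an unadjusted p below 0.05, 4 were higher and 0 lower in PFOS P1-7 than in control (12.5% and 5.79% of all genes), 3 were higher and 1 lower in PFOS P8-14 (6.33% and 4.65%), and 0 differed between the exposed groups. Adamts4, a secreted protease of myelinating cells, had the smallest p of the list in the first of these, with 59.5 ± 8.54 TPM in PFOS P1-7 and 41.0 ± 2.81 TPM in control (log2 difference 0.52, SE 0.13, adjusted p = 0.181 in limma). Unlike the 9 genes, its lowest PFOS P1-7 library (49.7 TPM) was above its highest control (44.2 TPM), as was so for 12.3% of all tested genes. Control replicate 1 was that highest control.

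Precursor genes did not follow the same libraries. Pdgfra, the growth factor receptor that marks precursors, stood at 41.04, 31.7 and 33.99 TPM in PFOS P8-14, at 39.1, 35.4 and 32.97 TPM in PFOS P1-7, and at 40.9, 22.3 and 26.4 TPM in control. Control replicate 1, lowest for every myelin gene, was thus the highest control for Pdgfra. The mean of the 10 tested precursor genes deviated by 0.26 in control replicate 1, the highest of the 9 libraries, where the 9 myelin genes deviated by -0.64, and by -0.29 in control replicate 2. Over 9 libraries the precursor list and the myelin genes had r = -0.52 and rho = -0.38, and without control replicate 1 r = -0.02 and rho = -0.12. Markers of newly formed oligodendrocytes had r = 0.69, and r = 0.67 without that library. Enpp6, an early marker of differentiating oligodendrocytes, stood at 29.8, 26.7 and 27.2 TPM in PFOS P8-14, at 29.97, 26.8 and 30.5 TPM in PFOS P1-7, and at 22.3, 20.3 and 23.1 TPM in control. Both exposed groups were above control without overlap, by log2 differences of 0.33 (SE 0.09, adjusted p = 0.426) and 0.39 (SE 0.09, adjusted p = 0.181 in limma), so it did not pass. Of all tested genes, 7.31% were higher without overlap in PFOS P8-14 and 12.3% in PFOS P1-7. Enpp6 was named for the smallest p of the 10 newly formed markers, of which 6 were above 0 in each comparison with control.

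**Figure D5:**
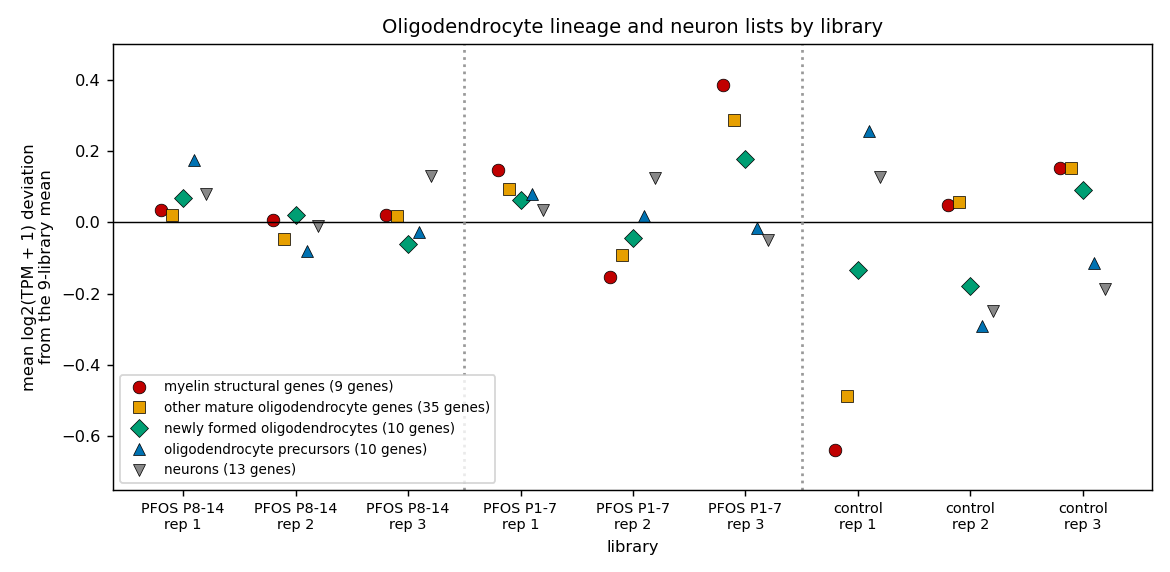
Mean deviation of log2(TPM + 1) from the 9-library mean, for the 9 myelin genes and 4 marker lists, in PFOS P8-14, PFOS P1-7 and control libraries from left to right. In control replicate 1 the myelin genes stand at -0.64 and the precursor list at 0.26.

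Of the lineage transcription factors, Myrf, which switches on myelin genes, stood at 46.4, 38.2 and 37.1 TPM in PFOS P8-14, at 51.9, 37.4 and 50.5 TPM in PFOS P1-7, and at 27.7, 36.98 and 42.2 TPM in control. Sox10 stood at 79.2, 68.6 and 70.6 TPM in PFOS P8-14, at 76.6, 68.9 and 86.1 TPM in PFOS P1-7, and at 58.4, 75.99 and 78.4 TPM in control. Both were lowest in control replicate 1. The groups overlapped for both. Zfp536, a zinc finger gene of the lineage, had the smallest p of the 8 factors in both comparisons with control, with 11.2 ± 3.09 TPM in PFOS P8-14 and 13.5 ± 1.05 TPM in PFOS P1-7, against 7.10 ± 3.48 TPM in control (adjusted p = 0.452 and 0.208 in limma).

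Partners of the lipid enzymes and of the axon were also read. Of 12 genes of galactolipid and sphingolipid synthesis and breakdown, Ugt8a among them, 0 passed in limma, and 2 were higher in PFOS P1-7 and 1 in PFOS P8-14 than in control at an unadjusted p below 0.05, shares near the 12.5% and 6.33% of all tested genes. Sptlc2, a subunit of the first enzyme of sphingolipid synthesis, had the smallest p in PFOS P1-7, with 21.2 ± 0.387 TPM against 16.6 ± 1.61 TPM in control (adjusted p = 0.204). Of 7 genes around N-acetylaspartate, Aspa among them, 0 passed, and Slc13a3, a transporter of it, had the smallest p in PFOS P1-7, with 8.88 ± 1.36 TPM against 11.7 ± 0.849 TPM in control (adjusted p = 0.237).

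Genes of the node of Ranvier and its flanks, most of them neuronal, had larger median differences than the myelin genes. Of 10 tested, 6 were higher in PFOS P1-7 and 3 in PFOS P8-14 than in control at an unadjusted p below 0.05, beside 12.5% and 6.33% of all tested genes, with medians of 0.34 and 0.25, and 0 passed over all genes in limma. The mean deviation of the list was 0.13, -0.11 and 0.13 in PFOS P8-14, 0.14, 0.21 and 0.06 in PFOS P1-7, and 0.10, -0.31 and -0.33 in control, so control replicates 2 and 3 stood apart. Neuron markers deviated by 0.08, -0.01 and 0.13 in PFOS P8-14, by 0.04, 0.12 and -0.05 in PFOS P1-7, and by 0.13, -0.25 and -0.19 in control. The rank correlation across genes of deviation with transcript length was 0.15, -0.15 and 0.23 in PFOS P8-14, 0.12, 0.36 and 0.13 in PFOS P1-7, and 0.15, -0.34 and -0.40 in control. Both were lowest in the same control libraries, and their part in the result was not tested. Kcna1, a potassium channel beside the node, had 66.1 ± 3.93 TPM in PFOS P8-14 and 71.8 ± 0.867 TPM in PFOS P1-7, against 53.2 ± 3.78 TPM in control (adjusted p = 0.424 and 0.181). The mean of this list and that of the myelin genes had r = -0.25 over 9 libraries.

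The genes whose pattern over the 9 libraries was most like the mean of the 9 myelin genes were sought among 11462 genes of at least 5 TPM on average. Among the 10 with the highest r, from 0.97 down to 0.96, were Gsn, Tmem88b, Nudt4, Pllp, Grb14, Plekha1, Cers2, Clic4 and Trf. Of those named, Tmem88b, Pllp and Cers2 are in the list of other mature oligodendrocyte genes. Gsn, the actin-severing protein gelsolin, stood at 283, 275 and 251 TPM in PFOS P8-14, at 311, 233 and 357 TPM in PFOS P1-7, and at 184, 266 and 324 TPM in control. Of the 35 other mature oligodendrocyte genes, 22 had r above 0.8, beside 1.47% of the 11462 genes. The lowest r belonged to Abcb6 (-0.95), Wdr18, Sstr1, Cd99l2 and Ckmt1 (-0.92). Without control replicate 1, r of the genes named as most like lay between 0.86 (Clic4) and 0.96 (Gsn). For those most unlike it lay between -0.83 (Abcb6) and -0.75 (Cd99l2). The share above 0.8 was not computed without that library. Abcb6, a mitochondrial transporter, was highest in control replicate 1 (23.8 TPM) and lowest in PFOS P1-7 replicate 3 (15.7 TPM).

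Other tissue in the samples was read beside these results. The choroid plexus list (15 genes, all tested) summed to 133 to 10107 TPM in PFOS P8-14, 63.6 to 12000 TPM in PFOS P1-7 and 54.3 to 10588 TPM in control. Ttr, the transthyretin gene, was part of that sum with 35.1 to 107.7 TPM in 4 libraries and 9446 to 11626 TPM in 5. The 4 were control replicates 1 and 2, PFOS P1-7 replicate 2 and PFOS P8-14 replicate 3, so this tissue was not balanced between groups. Their myelin genes deviated by -0.64, 0.05, -0.15 and 0.02 in that order. The choroid plexus list's mean had r = 0.62 with the myelin genes, or 0.59 without control replicate 1. With that mean as a covariate, the median difference of the 9 genes was 0.01 in PFOS P8-14 and 0.09 in PFOS P1-7 against control. Thalamus markers had r = 0.47, neocortex and subiculum markers r = -0.48 and neuron markers r = -0.48, and without control replicate 1 these were 0.49, -0.13 and -0.38 in that order. Ependymal markers had r = 0.59, astrocyte markers r = -0.39, microglial markers r = -0.71 and endothelial and mural markers r = -0.60, which without control replicate 1 were 0.52, -0.20, -0.09 and 0.10 in that order. In control replicate 1 the mean deviation was 0.31 for endothelial and mural markers, 0.27 for neocortex and subiculum markers, 0.19 for microglia and 0.13 for neurons, against -0.64 for the myelin genes. The part of these tissues in the results was not tested. Genes of peripheral myelin summed to 21.2 to 27.3 TPM in PFOS P8-14, 21.1 to 25.6 TPM in PFOS P1-7 and 19.7 to 22.8 TPM in control.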

How the data were processed

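Bulk RNA sequencing was measured in 9 hippocampus samples, 3 each of PFOS P8-14, PFOS P1-7 and control. The authors deposited 1 table of TPM per gene symbol, with column sums equal within rounding. RSEM 1.3.3, STAR 2.5.3a, fastp 0.21.0 and bcl2fastq, with build mm10, are named by the submitters' processing notes, and a TruSeq stranded mRNA kit by the labels' protocols. Annotation, strand setting and filters were not given in these sources. TPM keep no depth, so no counting interval was computed, and isoforms of a gene are summed.

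Differences were tested with limma 3.58.1 (R 4.3.3) on log2(TPM + 1), which understates changes of low genes. Genes reaching 1 TPM in 3 or more of 9 samples entered 1 fit with a mean per group and a mean-variance trend. Tests were two-sided, p was adjusted by Benjamini-Hochberg over every tested gene, and the threshold was 0.05. The fit was tested on simulated data. Log2 deviations are from a gene's mean over 9 libraries. The members and the 16 other lists, written from general knowledge, were chosen with earlier results of these data known. Other genes were named by rule: the smallest p of a list, the 10 most like and 5 most unlike the members, and Myrf, Sox10, Pdgfra and Ttr. Some genes that the rule names are not reported here. Alternatives varied pseudocount, filter, scaling, block, weights, covariates, length trend and samples. Transcript lengths came from GENCODE M21, and figures from matplotlib 3.10.9.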

Additional observations from a re-analysis of the deposited data

How the results depend on the processing

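No myelin gene was called under any of the 19 alternatives in any comparison (171 values each; adjusted p from 0.172, 0.194 and 0.960 upwards in PFOS P1-7 minus control, PFOS P8-14 minus control and PFOS P8-14 minus PFOS P1-7). The direction was less stable. It was kept in 157, 147 and 151 of the values. Fits that changed only the gene filter, the variance trend, the block or the groups included could not change a difference. Part of these counts was therefore fixed by design. The count of genes called over all genes was 0 in each comparison except in these fits. In PFOS P1-7 minus control it was 2914 with array weights, 2063 with the oligodendrocyte list as a covariate, and 0 to 2658 with 1 sample left out. In PFOS P8-14 minus control it was 1053 with array weights and 0 to 1741 with 1 sample left out. Among samples left out, control replicate 1 alone gave a count above 0. The cause was not tested. The median of the 9 genes moved by less than the spread between replicates (0.29) under every alternative. That spread was larger in size than each median itself (0.22, 0.13 and -0.08), so this could not show that the medians were stable. The sign of the median changed in PFOS P8-14 minus control with array weights (-0.025) and without control replicate 1 (-0.072). It also changed in PFOS P8-14 minus PFOS P1-7 with the oligodendrocyte covariate (0.029) and without PFOS P1-7 replicate 3 (0.038).

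Differences that changed sign are given by comparison. In PFOS P1-7 minus control, Cnp stood at -0.0032 with median-of-ratios scaling, -0.013 with the length trend removed, -0.067 with the choroid plexus covariate and -0.019 with array weights, where Mog stood at -0.017. With the oligodendrocyte covariate the values were -0.11 for Mog, -0.013 for Mobp, -0.11 for Cnp and -0.012 for Ugt8a. With 1 sample left out they ranged over -0.15 to 0.40 for Mog, -0.011 to 0.35 for Mobp, -0.098 to 0.23 for Cnp and -0.0089 to 0.35 for Ugt8a.

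In PFOS P8-14 minus control, Cnp stood at -0.043 with median-of-ratios scaling, and Cnp and Ugt8a at -0.050 and -0.025 with the length trend removed. Array weights gave -0.19 for Mog, -0.019 for Mobp, -0.11 for Cnp, -0.16 for Mal, -0.043 for Cldn11 and -0.025 for Ugt8a. The oligodendrocyte covariate gave -0.089 for Mog, -0.073 for Cnp and -0.0075 for Ugt8a, and the choroid plexus covariate -0.068 for Mog, -0.12 for Cnp, -0.011 for Cldn11 and -0.0029 for Ugt8a. With 1 sample left out the ranges were -0.30 to 0.25 for Mog, -0.070 to 0.29 for Mobp, -0.16 to 0.16 for Cnp, -0.24 to 0.45 for Mal, -0.072 to 0.23 for Cldn11, -0.12 to 0.24 for Ugt8a and -0.066 to 0.51 for Aspa.

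In PFOS P8-14 minus PFOS P1-7, Mag stood at 0.0064 with median-of-ratios scaling. The oligodendrocyte covariate gave 0.035 for Mbp, 0.058 for Mag, 0.021 for Mog, 0.050 for Mobp, 0.032 for Cnp, 0.023 for Cldn11, 0.0044 for Ugt8a and 0.029 for Aspa. With 1 sample left out the ranges were -0.20 to 0.049 for Mbp, -0.20 to 0.077 for Mag, -0.31 to 0.0054 for Mog, -0.19 to 0.052 for Mobp, -0.20 to 0.035 for Cnp, -0.26 to 0.0042 for Cldn11, -0.22 to 0.051 for Ugt8a and -0.24 to 0.038 for Aspa.

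Same-numbered samples did not deviate together throughout: the correlation of their deviations ranged from -0.47 to 0.53 over 9 pairs and was over 0.1 in 5, so the numbers were not read as pairing. With the replicate number as a block, 0 genes were called in each comparison. The median of the 9 genes was 0.22 in PFOS P1-7 and 0.13 in PFOS P8-14 against control. Between the exposed groups (PFOS P8-14 minus PFOS P1-7) it was -0.08. Every replicate number occurred in each group, so the block could not change these medians.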
